A study of Homo sapiens with 21 samples.

Results

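AU565 cell aggregates that had been primed with trastuzumab before they formed were compared with aggregates that had not, and both were given trastuzumab at the end of the culture. The comparison takes the 3 primed and treated libraries and the 3 treated libraries, 6 of the 21 libraries of the series, and covers all genes: 15969 of the 16553 genes in the deposited table passed the filter on low counts. AU565 is a human line of breast cancer epithelium in which ERBB2 is amplified, labelled as wild type with no engineered allele. Cells of both groups were grown as aggregates in liquid overlay with 5% matrigel for 96 h and then given trastuzumab at 50 µg/ml for the last 24 h. The primed and treated group came from cells that had first been exposed as a monolayer to 20 µg/ml for 24 h. The labels do not say whether the cells of the treated group spent a matching 24 h as an untreated monolayer, nor whether the antibody was removed after priming, so priming and any such difference in handling cannot be told apart. They also do not say that the 3 libraries of a group came from separate cultures. The p-values therefore measure the spread between libraries of a group, pooled over all 21 libraries, and this spread may be technical. The other groups compared here are aggregates without a last dose, either primed or untreated, taken at 96 h, with 3 libraries each. Monolayer groups, also with 3 libraries each, enter the pooled spread, and the primed monolayers are cited for some transcripts. Monolayers were untreated, exposed to 20 µg/ml for 24 h, or primed, that is exposed to 20 µg/ml for 24 h and then cultured for 96 h.

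Trastuzumab is an antibody that binds the extracellular part of HER2, the receptor tyrosine kinase encoded by ERBB2. HER2 has no known ligand and signals in pairs with other members of its family, mainly with HER3, through the PI3K and AKT pathway and the RAS and ERK pathway. AKT keeps the FOXO transcription factors out of the nucleus, and ERK signalling induces D-type cyclins as well as its own feedback inhibitors. Entry into S phase is driven by E2F factors. The later wave of G2 and mitotic genes is transcribed by MYBL2 with the MuvB complex and by FOXM1, through promoter elements known as CHR.

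The 6 libraries held 21823685 to 26921113 counts. The 13 markers of a HER2-amplified luminal line were all tested and summed to 19383 to 20569 CPM (counts scaled to library size) in the primed and treated and 20277 to 21295 in the treated libraries. The mitochondrial rRNA took 2.13 to 2.36% of the counts in the primed and treated and 1.52 to 1.71% in the treated libraries. Its part in the results was not tested. Some transcripts typical of kidney, such as UMOD and SLC22A8, and of brain, such as SNAP25, stood out in these 6 libraries and in the primed monolayers. The kidney markers as a whole did not: they summed to 238 to 277 CPM in the primed monolayers and 346 to 395 CPM in the primed aggregates. The kidney genes CUBN and CALB1 did not divide the libraries in this way. Transcripts of melanocytes and of mesenchymal cells stood out in the other 12. Both groups compared here thus lie on the same side of that division.

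Priming was followed by many changes in treated aggregates, most of them small. By edgeR's quasi-likelihood test at an adjusted p under 0.05, 1274 genes changed (7.98% of those tested), of which 508 were higher (3.18%) and 766 lower (4.80%) in the primed and treated aggregates. These shares are the background for every list count of this comparison given below. The median change among the higher genes was 1.22-fold and among the lower genes 1.30-fold, while the median over all genes was 0.00094 on the log2 scale. Of the changed genes 302 differed by 1.5-fold or more, and these were 70 higher and 232 lower. Changes of 2-fold or more were found for 93 genes, 22 higher and 71 lower. The count was lower without a single library: 820 without primed and treated replicate 1, 695 without primed and treated replicate 2 and 780 without treated replicate 1. It was higher, at 2050, when the spread was estimated from the 6 compared libraries alone.

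**Figure D1:**
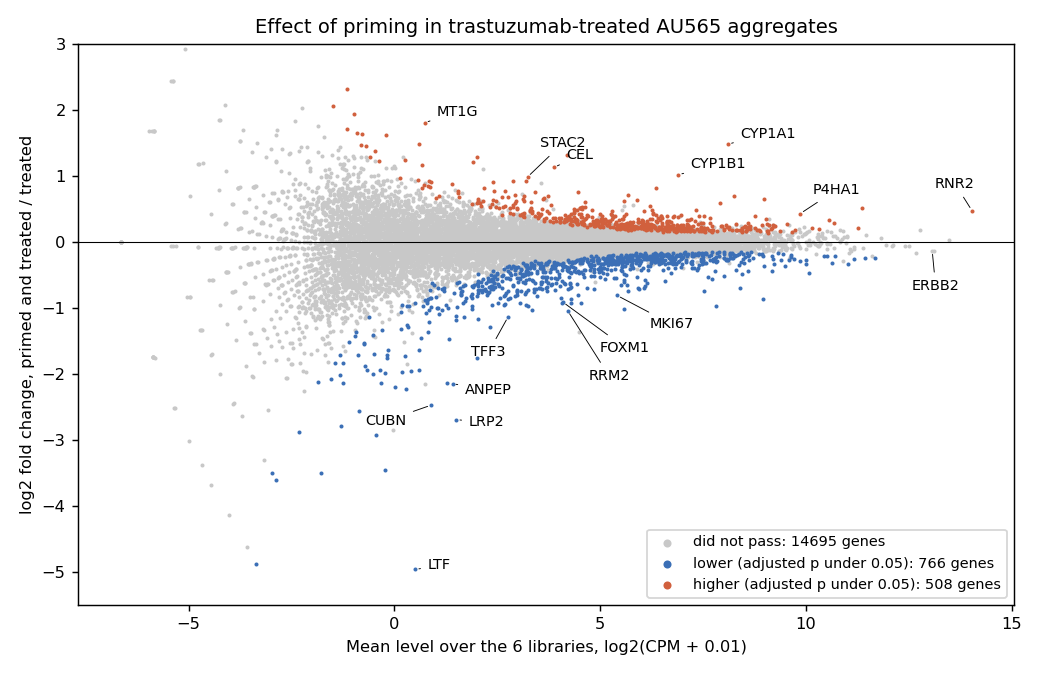
Change against level for the 15969 genes tested. The x axis is the mean level over the 6 libraries as log2(CPM + 0.01), the y axis the log2 fold change of primed and treated over treated aggregates, and each point is a gene; the 508 higher genes are orange, the 766 lower genes blue. Most called genes lie within 1 unit of 0, and the deepest falls, such as LTF at -4.96 and LRP2 at -2.69, are of low level.

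The clearest change was a fall of the mitotic programme. Of 30 genes for mitotic cyclins, kinases, spindle and kinetochore proteins, 28 fell and none rose, against 4.80% of all genes lower, with a median change of -0.64 on the log2 scale. In each of the 28, all 3 primed and treated libraries lay below all 3 treated libraries, a separation seen in that direction for 14.8% of all genes. The other 2 were both phosphatases that activate mitotic cyclin-dependent kinase, CDC25C at -0.80 ± 0.31 (edgeR adjusted p = 0.126) and CDC25B at -0.036 ± 0.057 (edgeR adjusted p = 0.787). CDC25C passed, as lower, with DESeq2 (-0.81), when only the 6 libraries were fitted (-0.81) and without primed and treated replicate 1 (-1.16). Leaving out 1 library at a time left 26 to 29 mitotic genes lower. In RNA from whole aggregates, fewer dividing cells and less of these transcripts per cell cannot be told apart.

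FOXM1, the transcription factor of late cell cycle genes (Entrez 2305, chr12:2857680-2877174 in GRCh38.p14), stood at 23.3, 20.9 and 22.7 CPM in the treated libraries and at 11.3, 10.7 and 13.5 CPM in the primed and treated ones. The groups did not overlap, and FOXM1 fell by 0.91 on the log2 scale (SE 0.083, edgeR adjusted p = 8.32e-09). CDC20, the activator of the anaphase-promoting complex, went from 15.4, 17.4 and 16.5 CPM to 10.5, 9.66 and 9.31 CPM. BIRC5, the survivin subunit of the chromosomal passenger complex, went from 13.2, 13.5 and 11.4 CPM to 5.56, 6.22 and 7.51 CPM. Both were lower in every primed and treated library, CDC20 at -0.74 ± 0.08 (edgeR adjusted p = 1.81e-07) and BIRC5 at -0.97 ± 0.12 (edgeR adjusted p = 1.98e-06) in log2. MKI67, the proliferation marker Ki-67, measured 59.8, 56.1 and 46.8 CPM and then 28.9, 31.4 and 32.2 CPM, a change of -0.81 ± 0.10 (edgeR adjusted p = 2.48e-05). Outside the list, the spindle proteins SPAG5 (-0.65 ± 0.061), FAM83D (-0.81 ± 0.085) and TACC3 (-0.70 ± 0.077) and the MuvB partner MYBL2 (-0.92 ± 0.10) were among the 10 lower genes with the smallest p. MYBL2 stood at 22.3, 21.6 and 22.0 CPM in the treated and at 11.8, 11.7 and 11.3 CPM in the primed and treated libraries.

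Promoter sequence was set beside this fall. In the 250 bases before the start site given by RefSeq (GRCh38.p14), TTTGAA, the letters of the CHR element, occurred on either strand in 13 of the 24 mitotic genes with an entry (54.2%) and in 9.34% of 12190 promoters of tested genes. The shares for the CCAAT box, searched as CCAAT on either strand, were 87.5% (21 of 24) and 33.9%. Among all lower genes with an entry TTTGAA occurred in 16.1%, and among all higher genes in 10.9%. The mitotic list was chosen by function, so its share of TTTGAA does not bear on the fall. Within the list, lower genes such as PTTG1, CCNB1, KIF20A and BUB1 held no TTTGAA. Of the mitotic genes that were not called, CDC25C held it and CDC25B did not. With so few not called, the list cannot show whether the letters go with the fall. The windows of the 3 lower mitotic genes with the smallest p that hold TTTGAA are shown, since both elements stand together in them; capitals mark TTTGAA or TTCAAA and CCAAT or ATTGG. CDC20 lies on the plus strand at chr1:43358731-43358980, KIF23, a kinesin of the midzone and cytokinesis, on the plus strand at chr15:69414099-69414348, and PRC1, the microtubule bundler of the midzone, on the minus strand at chr15:90994536-90994785.
CDC20: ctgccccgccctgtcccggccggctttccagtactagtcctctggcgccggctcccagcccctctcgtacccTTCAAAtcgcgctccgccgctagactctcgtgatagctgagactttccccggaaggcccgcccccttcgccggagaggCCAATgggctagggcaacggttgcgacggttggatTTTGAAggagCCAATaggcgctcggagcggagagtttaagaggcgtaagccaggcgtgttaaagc
KIF23: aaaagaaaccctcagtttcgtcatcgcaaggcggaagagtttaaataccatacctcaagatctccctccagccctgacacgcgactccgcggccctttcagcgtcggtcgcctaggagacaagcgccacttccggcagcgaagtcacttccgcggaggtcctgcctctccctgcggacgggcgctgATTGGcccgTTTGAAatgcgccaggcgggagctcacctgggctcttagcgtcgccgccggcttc
PRC1: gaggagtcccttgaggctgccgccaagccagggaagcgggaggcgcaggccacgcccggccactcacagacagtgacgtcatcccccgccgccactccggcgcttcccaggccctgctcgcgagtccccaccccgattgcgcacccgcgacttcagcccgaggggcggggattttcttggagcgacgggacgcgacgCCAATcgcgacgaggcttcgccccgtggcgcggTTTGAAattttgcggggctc
CDC20 holds TTTGAA 2 times and CCAAT 2 times, and KIF23 and PRC1 hold each once. KIF23 went from 20.4, 19.8 and 19.5 CPM in the treated libraries to 10.8, 12.9 and 14 CPM in the primed and treated ones. PRC1 went from 27.4, 29.9 and 29.1 CPM to 19.0, 20.0 and 20.8 CPM. The groups did not overlap for either gene, and the changes were -0.66 ± 0.085 and -0.53 ± 0.069 in log2 (edgeR adjusted p = 2.13e-06 and 2.91e-06). A match of letters is a description of these windows and not a measured site.

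Genes of DNA replication fell in part. Of 33 genes for licensing factors, polymerases and nucleotide supply, 12 fell and none rose, with a median of -0.20. Those that fell included CDC6, RRM2, E2F1, MCM10, TYMS, CDC45, FEN1, CDT1, E2F2, GINS1 and CCNE1, while none of the subunits MCM2 to MCM7 of the replicative helicase passed. The number called was 7 without primed and treated replicate 1 and 6 without treated replicate 1. CDC6, which loads the helicase onto origins, stood at 90.0, 82.4 and 77.3 CPM in the treated and at 51.1, 53.7 and 52.7 CPM in the primed and treated libraries. RRM2, the regulated subunit of ribonucleotide reductase, stood at 28.5, 24.2 and 22.4 CPM and at 9.78, 12.7 and 13.7 CPM. Neither gene's groups overlapped, and the changes were -0.66 ± 0.071 and -1.04 ± 0.11 in log2 (edgeR adjusted p = 2.68e-07 and 3.14e-07). E2F1, a driver of S phase entry, went from 10.4, 10.4 and 11.9 CPM to 5.43, 5.34 and 6.37 CPM, or -0.92 ± 0.11 in log2 (edgeR adjusted p = 3.96e-07), again with no overlap. TYMS, which makes thymidylate, went from 6.79, 6.88 and 4.53 CPM to 3.64, 3.24 and 3.75 CPM, or -0.77 ± 0.15 (edgeR adjusted p = 0.00103), with treated replicate 3 the nearest to the primed and treated libraries. Of the 24 clustered histone genes tested, whose transcripts accumulate in S phase, edgeR called 0, DESeq2 0 and limma voom 1, and 2 had an unadjusted p under 0.05.

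An E2F site, searched as TTTCCCGC or TTTGGCGC on either strand, occurred in 10 of 28 replication genes with an entry (35.7%) and in 2.99% of the 12190 promoters. In the mitotic list it occurred in 2 of 24 (8.33%). Among all lower genes with an entry it occurred in 5.04%, and among all higher genes in 3.03%. The windows of the 2 lower replication genes with the smallest p that hold it are shown with the site in capitals. E2F1 lies on the minus strand at chr20:33686386-33686635 and TYMS on the plus strand at chr18:657403-657652, both in RefSeq's GRCh38.p14.
E2F1: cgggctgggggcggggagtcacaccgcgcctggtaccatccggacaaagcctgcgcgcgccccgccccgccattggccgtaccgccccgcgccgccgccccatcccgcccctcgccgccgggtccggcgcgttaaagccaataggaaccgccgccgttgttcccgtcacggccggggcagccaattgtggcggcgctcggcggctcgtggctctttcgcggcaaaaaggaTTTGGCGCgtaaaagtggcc
TYMS: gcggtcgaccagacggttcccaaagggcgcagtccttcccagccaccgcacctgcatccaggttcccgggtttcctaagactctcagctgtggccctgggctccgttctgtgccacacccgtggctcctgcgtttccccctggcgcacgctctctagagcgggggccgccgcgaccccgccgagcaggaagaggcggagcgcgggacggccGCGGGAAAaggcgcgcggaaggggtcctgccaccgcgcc
Each window holds the site once. Of the lower replication genes with an entry, E2F1, TYMS, CDT1, which licenses origins with CDC6, and the activator E2F2 held it. Of the replication genes that were not called, GINS2, POLE, POLA1, MCM6, RFC3 and MCM3 held it as well. The site thus did not set apart the replication genes that fell.

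**Figure D2:**
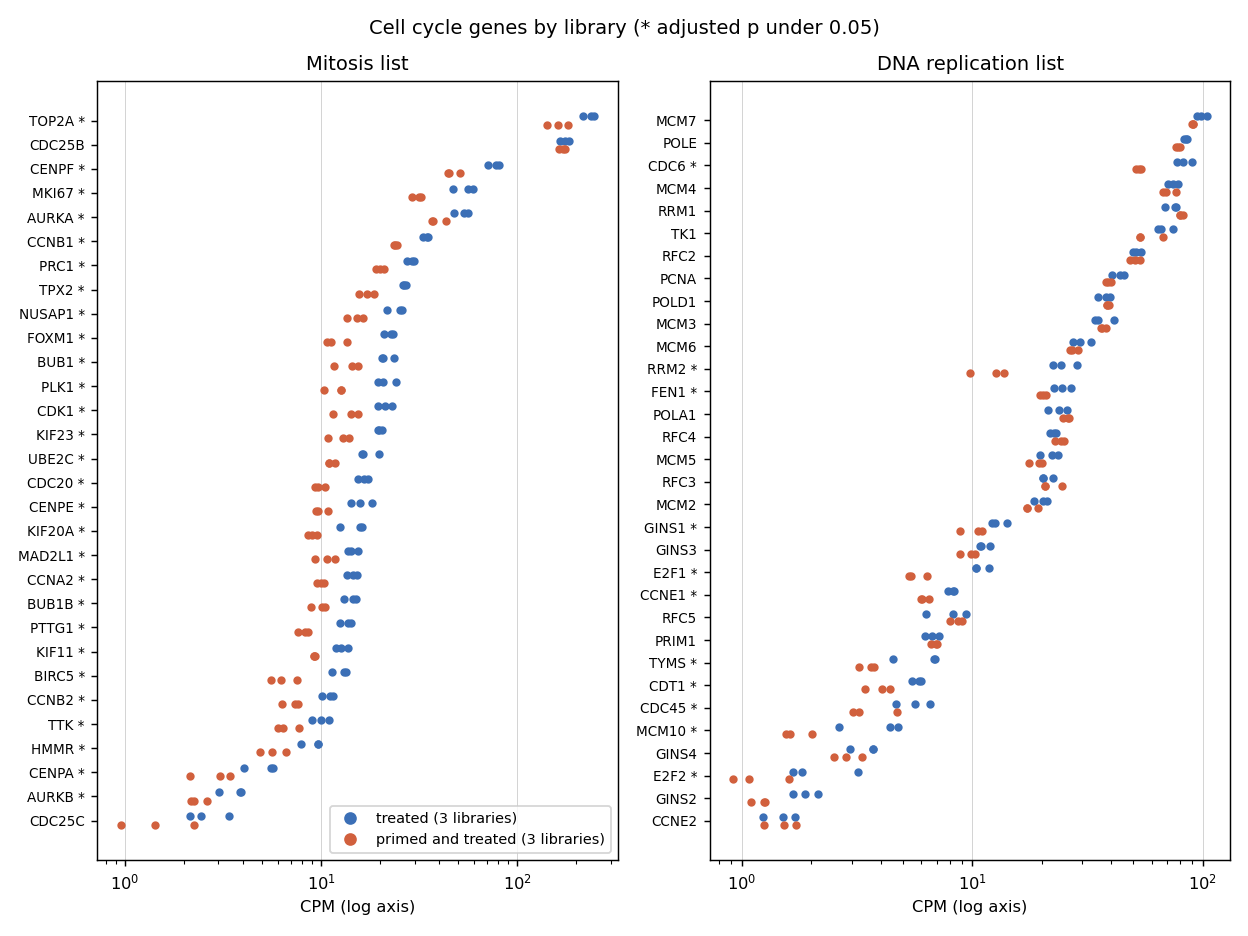
Levels of the 30 mitotic genes (left) and the replication genes (right, 1 of the 33 not shown) by library. The x axis is CPM on a log scale, each point is a library, blue for treated and orange for primed and treated aggregates, and a star marks an edgeR adjusted p under 0.05; 28 stars stand on the left, and all starred genes are lower after priming.

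Summed over the 30 genes, the mitotic transcripts took 963 to 1027 CPM in the treated libraries and 666 to 758 CPM in the primed and treated ones. In aggregates without a last dose the same sum was 569.7 to 656 CPM in the untreated and 654 to 762 CPM in the primed group. The primed and treated libraries thus lay within the range of the aggregates that had no last dose, and the treated libraries above all of them. The last dose, the extra 24 h of culture and the division by transcripts of other tissues cannot be told apart in that comparison. The summed replication genes took 905 to 982 CPM in the treated and 821 to 850.4 CPM in the primed and treated libraries. Of 18 G1 cyclins, their kinases and inhibitors, 4 rose and 2 fell. CCND1, cyclin D1, fell from 344, 334 and 324 CPM to 284, 287 and 293 CPM with no overlap, or by 0.21 in log2 (edgeR adjusted p = 0.00196). The inhibitor CDKN1B, p27, was at 89.2, 89.7 and 86.5 CPM and 98.6, 106 and 96.3 CPM, or 0.18 ± 0.058 (edgeR adjusted p = 0.0484). It passed narrowly, and did not pass when primed and treated replicate 1 (0.19) or 2 (0.14) or treated replicate 1 (0.19), 2 (0.19) or 3 (0.16) was left out, nor with DESeq2's size factors (0.17). Without primed and treated replicate 2 or treated replicate 2, 0 members of the list were called higher, 1 without primed and treated replicate 1 and 2 without any of the others, and in all 6 of these fits 1 was lower.

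The HER2 receptor and its partners differed little in transcript level. ERBB2 (Entrez 2064, chr17:39688094-39728658 in GRCh38.p14) measured 9052, 9091 and 8832 CPM in the treated and 8407, 7842 and 8345 CPM in the primed and treated libraries. All 3 primed and treated libraries were below all 3 treated ones, by -0.13 ± 0.053 in log2, and the edgeR adjusted p was 0.122. The difference passed with DESeq2 (-0.14), with limma voom (-0.13) and when only the 6 libraries were fitted (-0.14). GRB7, an adaptor gene amplified together with ERBB2, was at 1275, 1319 and 1288 CPM and 1470.0, 1388 and 1385 CPM, or 0.13 ± 0.053 (edgeR adjusted p = 0.144), and passed, as higher, when only the 6 libraries were fitted (0.13). ERBB3, which encodes HER3, was at 0.043 ± 0.05 (edgeR adjusted p = 0.698), and EGFR at 0.12 ± 0.06 (edgeR adjusted p = 0.239). Of 17 genes for receptors of the family, their ligands and regulators, 2 rose and 1 fell, against 3.18% of all genes higher. The gene that fell was ERRFI1, an inhibitor of EGFR and HER2 that ERK signalling induces, from 128, 131 and 125 CPM to 90.1, 103 and 99.5 CPM (-0.39 ± 0.066, edgeR adjusted p = 9.8e-05). CBL, a ubiquitin ligase that sends active receptors to degradation, rose from 124, 129 and 129.8 CPM to 149, 154 and 152 CPM (0.25 ± 0.054, edgeR adjusted p = 0.00221). Neither gene's groups overlapped. The other gene that rose was EGF, a ligand of EGFR. Without primed and treated replicate 3, treated replicate 1 or treated replicate 2, CBL was the 1 gene of the list called higher.

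FOXO3 and some of the genes that FOXO factors induce when PI3K signalling is low rose. Of 21 genes of that list 7 rose and 2 fell, with a median of 0.20. FOXO3, itself a factor of the family, measured 54.4, 57.3 and 56.4 CPM in the treated and 76.3, 82.7 and 73.7 CPM in the primed and treated libraries. FBXO32, the ubiquitin ligase atrogin-1, measured 351, 371 and 405 CPM and 473, 482 and 517 CPM. Both were higher in every primed and treated library, by 0.47 ± 0.06 and 0.39 ± 0.052 in log2 (edgeR adjusted p = 1.82e-06 and 4.65e-06). CITED2, a transcriptional coregulator, moved the other way, from 159, 164 and 169.8 CPM to 129, 135 and 136 CPM (-0.30 ± 0.066, edgeR adjusted p = 0.00266). INSR, the insulin receptor, was at 0.21 ± 0.077 and did not pass (edgeR adjusted p = 0.0876), but passed when only the 6 libraries were fitted (0.21), a fit in which 12 of the 21 rose. The other calls of the list were near the threshold: without 1 library at a time 2 to 4 members were called higher, with 2 without primed and treated replicate 1, treated replicate 1 or treated replicate 2, 3 without primed and treated replicate 2, and 4 without primed and treated replicate 3 or treated replicate 3. The number lower was 2 without treated replicate 3 and 1 without any other of the 6.

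The 3 lists that follow stand against 3.18% of all genes higher and 4.80% lower. Among 14 regulators of mitochondrial cell death, BCL2L11 alone rose and none fell. BCL2L11 encodes BIM, a cell death activator held down by both AKT and ERK signalling, and it went from 85.4, 88.8 and 89.8 CPM to 104, 111 and 111 CPM (0.31 ± 0.059, edgeR adjusted p = 0.00063), with no overlap. Of 17 feedback inhibitors and ETS factors of ERK signalling, 2 fell and none rose, with a median of -0.11, and 1 fell without primed and treated replicate 1 or 2. SPRY4, a feedback inhibitor of receptor tyrosine kinases, fell from 90.6, 83.0 and 86.2 CPM to 70.1, 65.0 and 78.3 CPM (-0.28 ± 0.061, edgeR adjusted p = 0.00201). The other was the ephrin receptor gene EPHA2. Of 16 immediate early genes, the nuclear receptor NR4A1 alone passed, from 156, 161 and 177 CPM to 134, 133 and 139.5 CPM (-0.28 ± 0.07, edgeR adjusted p = 0.00918), and its call was lost without primed and treated replicate 2 (-0.27) or treated replicate 3 (-0.23). Without primed and treated replicate 3 or treated replicate 1, 2 genes of the list fell, and without treated replicate 2, 1 rose.

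The largest rise of a well expressed gene was that of CYP1A1, a cytochrome P450 that the aryl hydrocarbon receptor (AHR) induces (Entrez 1543, chr15:74719542-74725528 in GRCh38.p14). CYP1A1 measured 124, 127 and 186 CPM in the treated and 403, 346 and 472 CPM in the primed and treated libraries. Every primed and treated library was above every treated one, and the change was 1.48 ± 0.14 in log2 (edgeR adjusted p = 7.72e-06). CYP1B1, the related enzyme that acts on estrogens, went from 72.2, 72.6 and 92.3 CPM to 154, 148 and 178 CPM, or 1.02 ± 0.092 (edgeR adjusted p = 2.68e-07), also with no overlap. Other known targets of AHR were looked at after these values were seen. AHRR, the repressor of the receptor, went from 17.1, 18.5 and 21.4 CPM to 26.3, 26.8 and 28.5 CPM (0.52 ± 0.084, edgeR adjusted p = 7.02e-05). TIPARP, another feedback inhibitor, went from 20.0, 21.2 and 20.4 CPM to 25.0, 27.2 and 27.7 CPM (0.38 ± 0.079, edgeR adjusted p = 0.00156). Neither gene's groups overlapped. CYP1A2 was low, at 1.22 and 2.32 CPM on average, and its change of 0.92 ± 0.29 (edgeR adjusted p = 0.0427) did not pass when any 1 of the 6 libraries was left out, where it ranged from 0.85 to 1.07, nor with the replicate number as a term (0.92). NQO1, which also responds to NRF2, was at 0.058 ± 0.051 (edgeR adjusted p = 0.577), and AHR itself at 0.047 ± 0.069 (edgeR adjusted p = 0.767).

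Other genes with large or well resolved rises belonged to no single group. CEL, the bile salt-activated lipase, had the smallest p among higher genes and went from 8.51, 9.76 and 9.39 CPM to 21.3, 20.3 and 19.1 CPM (1.13 ± 0.11, edgeR adjusted p = 8.32e-09), although reads of its pseudogene may be shared with it. GBP2, an interferon-inducible GTPase, went from 2.71, 1.79 and 2.43 CPM to 5.83, 6.05 and 5.15 CPM (1.29 ± 0.20, edgeR adjusted p = 3.46e-05). TGM2, which crosslinks proteins, went from 9.25, 13.7 and 8.67 CPM to 28.9, 30.5 and 18.8 CPM (1.31 ± 0.27, edgeR adjusted p = 0.00678) and did not pass when only the 6 libraries were fitted (1.31). In all 3 genes the groups did not overlap. LCN2, the iron-scavenging lipocalin, rose from 58.4, 68.1 and 53.2 CPM to 116, 124 and 76.0 CPM (0.81 ± 0.15, edgeR adjusted p = 0.00276), and it too did not pass in the fit of the 6 libraries (0.81). SERPINB1, an inhibitor of neutrophil proteases, rose by 0.62 ± 0.075 and MYLIP, a ubiquitin ligase, by 0.42 ± 0.054 (edgeR adjusted p = 9.87e-07 and 2.02e-06). Among higher genes with at least 1 CPM in 1 group and no overlap, the 3 largest fitted rises also included 2 genes under 3 CPM on average in both groups. MT1G, a metallothionein whose close relatives can share its reads, went from 1.03, 0.229 and 0.939 CPM to 1.62, 1.93 and 4.20 CPM (1.81 ± 0.41, edgeR adjusted p = 0.00368), with primed and treated replicate 3 the highest. It did not pass without that library (1.26) or when only the 6 libraries were fitted. GABRR2, a GABA receptor subunit, went from 0.516, 1.05 and 0.811 CPM to 1.66, 2.52 and 2.43 CPM (1.48 ± 0.36, edgeR adjusted p = 0.00793) and did not pass without primed and treated replicate 2 (1.38) or treated replicate 1 (1.25).

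Chaperones of the endoplasmic reticulum and some secretory genes fell. Of 18 genes of the unfolded protein response, 11 fell and none rose, with a median of -0.24, and 9 to 11 fell with 1 library left out. HYOU1, an ER chaperone of the HSP70 type, measured 452, 444 and 440.5 CPM in the treated and 321, 328 and 341 CPM in the primed and treated libraries (-0.43 ± 0.058, edgeR adjusted p = 4.12e-06). CRELD2, an ER-resident protein induced by ER stress, measured 57.0, 59.4 and 51.1 CPM and 39.2, 38.7 and 41.4 CPM (-0.49 ± 0.072, edgeR adjusted p = 1.9e-05). The groups did not overlap for either. PDIA6, a disulfide isomerase, fell by 0.27 (SE 0.046) and HSPA5, the central ER chaperone BiP, by 0.33 (SE 0.059) in log2 (edgeR adjusted p = 0.000112 and 0.000224). XBP1, the transcription factor of this response and of secretory cells, stood at 1029, 1011 and 1012 CPM and 838, 841 and 829 CPM (-0.28 ± 0.064, edgeR adjusted p = 0.00397). Cytosolic and mitochondrial chaperones were counted apart: 1 of 20 rose and 1 fell, against 3.18% of all genes higher and 4.80% lower. The rise was lost in each fit without 1 library other than primed and treated replicate 3, and the fall in each other than those without primed and treated replicate 1 or treated replicate 3.

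Of 31 genes of secretory mammary epithelium and its transcription factors, 7 fell and 2 rose. AGR2, a disulfide isomerase of mucus-producing cells, went from 437, 425 and 400.3 CPM to 257, 257 and 264 CPM. TFF3, a trefoil peptide secreted with mucins, went from 9.50, 9.21 and 9.26 CPM to 4.26, 4.08 and 4.38 CPM. Neither overlapped between the groups, and the changes were -0.70 ± 0.087 and -1.14 ± 0.17 (edgeR adjusted p = 2.07e-05 and 2.22e-05). ELF3, an epithelial ETS factor, rose from 525, 558 and 529.6 CPM to 687, 625 and 616 CPM (0.26 ± 0.052, edgeR adjusted p = 0.00103) and was the 1 of the 13 markers of the luminal line that changed. The milk protein LTF had the largest fall of any named gene in these libraries, -4.96 ± 1.02 (edgeR adjusted p = 0.00512), but it was at 4.86, 3.25 and 0.128 CPM in the treated libraries and at 0.0449, 0.126 and 0.0736 CPM in the primed and treated ones, so that treated replicate 3 lay next to the primed and treated libraries. Its change did not pass with limma voom (-3.75).

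Genes of the lysosome and of lipid synthesis that passed were all lower. In the list of autophagy and lysosome genes 6 of 26 fell and none rose. CTSA, the lysosomal cathepsin A, went from 396, 408 and 399 CPM to 330.2, 313 and 324 CPM (-0.31 ± 0.051, edgeR adjusted p = 7.45e-05), and the autophagy protein WIPI1 changed by -0.32 ± 0.051 (edgeR adjusted p = 5.82e-05). In the list of cholesterol synthesis and uptake 6 of 25 fell and none rose, with a median of -0.12. DHCR7, the reductase of the last step of cholesterol synthesis, went from 158, 168 and 181 CPM to 132, 129.6 and 141 CPM with no overlap (-0.33 ± 0.06, edgeR adjusted p = 0.000314). The sterol list counted 5 to 9 lower genes with 1 library left out, with 9 without primed and treated replicate 3. In fatty acid synthesis 3 of 23 fell, and 1 without primed and treated replicate 1, primed and treated replicate 2 or treated replicate 3, with the desaturase SCD at -0.20 ± 0.051 (edgeR adjusted p = 0.00918). SCD did not pass without primed and treated replicate 1 (-0.16), primed and treated replicate 2 (-0.19) or treated replicate 3 (-0.18).

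Some genes of the matrix and its receptors fell. Of 29 integrin, basement membrane and matrix remodelling genes, 7 fell and none rose, with a median of -0.22, and 4 fell without treated replicate 2. ITGA1, a collagen receptor subunit, went from 34.0, 34.4 and 29.1 CPM in the treated to 21.4, 22.9 and 23.4 CPM in the primed and treated libraries. LAMB1, a laminin chain, went from 169, 164 and 162 CPM to 132, 132 and 134 CPM. ITGB4, the integrin subunit of hemidesmosomes, went from 74.3, 76.6 and 66.6 CPM to 58.5, 54.7 and 49.0 CPM. In all 3 the groups did not overlap, and the changes were -0.52 ± 0.076, -0.32 ± 0.046 and -0.42 ± 0.079 (edgeR adjusted p = 1.28e-05, 1.38e-05 and 0.000501). Outside the list, PXDN, a peroxidase that crosslinks collagen IV (Entrez 7837, chr2:1631887-1744901 in GRCh38.p14), had the smallest p of all lower genes and stood at 120.0, 111 and 117 CPM and 74.8, 74.2 and 80.5 CPM (-0.60 ± 0.053, edgeR adjusted p = 8.18e-09). LGALS1, the matrix-binding galectin-1, stood at 27.6, 30.4 and 33.5 CPM and 15.1, 15.8 and 17.1 CPM (-0.93 ± 0.086, edgeR adjusted p = 8.32e-09). FN1, fibronectin, fell by 0.74 (SE 0.13, edgeR adjusted p = 0.00147), and did not pass when only the 6 libraries were fitted (-0.74). The collagen crosslinker LOXL2 moved the other way, from 10.3, 9.76 and 10.5 CPM to 16.2, 15.6 and 17.4 CPM (0.69 ± 0.14, edgeR adjusted p = 0.00186). The Wnt inhibitor DKK1 (-0.96 ± 0.16), the retinal dehydrogenase ALDH1A1 (-1.03 ± 0.13) and the cationic amino acid carrier SLC7A2 (-0.69 ± 0.07) were also lower with no overlap (edgeR adjusted p = 8.09e-05, 4.73e-06 and 3.8e-08).

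A few targets of hypoxia signalling and of the amino acid response rose. Of 25 targets of the oxygen-sensing HIF factors, 4 rose and 1 fell, with a median of 0.09, and 0 fell without primed and treated replicate 2 or any 1 of the treated replicates. P4HA1, a prolyl hydroxylase that matures collagen, measured 749, 771 and 863 CPM in the treated and 1007, 1088 and 1115 CPM in the primed and treated libraries. BNIP3, which promotes mitophagy, measured 143, 139 and 143 CPM and 177, 179 and 172 CPM. Neither overlapped between the groups, and the changes were 0.43 ± 0.053 and 0.31 ± 0.055 (edgeR adjusted p = 1.17e-06 and 0.000191). MXI1, an antagonist of MYC, was at 0.34 ± 0.061 (edgeR adjusted p = 0.000272). The growth factor VEGFA (0.15 ± 0.065, edgeR adjusted p = 0.18), the oxygen sensor EGLN3 (-0.05 ± 0.067, edgeR adjusted p = 0.74) and the factor MYC (0.11 ± 0.054, edgeR adjusted p = 0.244) did not pass. In glycolysis 4 of 21 genes rose and none fell, and 2 rose without primed and treated replicate 1 or 2 or without treated replicate 1 or 2. PGK1, the phosphoglycerate kinase, rose from 1438, 1491 and 1516 CPM to 1787, 1815 and 1834 CPM (0.29 ± 0.055, edgeR adjusted p = 0.000542), and PFKP, a phosphofructokinase, by 0.26 ± 0.057 (edgeR adjusted p = 0.00275). Of 23 targets of ATF4, 3 rose and 1 fell, with 6 higher when only the 6 libraries were fitted. Without primed and treated replicate 2, 1 was higher, and 0 were lower without primed and treated replicate 2 or 3 or treated replicate 1 or 2. The lipoprotein receptor VLDLR was at 0.39 ± 0.074 (edgeR adjusted p = 0.000508) and the amino acid carrier subunit SLC3A2 at 0.27 ± 0.064 (edgeR adjusted p = 0.00569), the latter not passing without primed and treated replicate 2 (0.24).

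Some ribosomal protein genes and the mitochondrial rRNA rose. Of 28 cytosolic ribosomal protein genes, 8 rose and none fell, with a median of 0.17. The count depended on single libraries: it was 1 without primed and treated replicate 1 or treated replicate 3, 2 without primed and treated replicate 2, 3 without treated replicate 1 and 14 without primed and treated replicate 3, and it was 16 when only the 6 libraries were fitted. RPS27, a protein of the small subunit, rose most, from 39.4, 41.2 and 36.5 CPM to 67.7, 69.7 and 54.7 CPM (0.71 ± 0.079, edgeR adjusted p = 3.14e-07). RPL4, of the large subunit, was at 0.21 ± 0.053 (edgeR adjusted p = 0.00759) and did not pass without primed and treated replicate 1 or treated replicate 3 (0.19 each). Such genes have many processed copies, between which reads may be split. Of 15 transcripts of the mitochondrial genome, the rRNAs RNR1 and RNR2 rose and 4 mRNAs fell. RNR2 went from 14292, 14932 and 12916 CPM to 20374, 20020.1 and 18163 CPM and RNR1 from 2217, 2194 and 2051 CPM to 3309, 3021 and 2911 CPM, with no overlap (0.47 ± 0.063 and 0.52 ± 0.062, edgeR adjusted p = 3.43e-06 and 1.01e-06). CYTB, the cytochrome b mRNA, went from 2340.5, 2323 and 2311 CPM to 1837, 1806 and 1913 CPM (-0.33 ± 0.051, edgeR adjusted p = 3.49e-05), and the others that fell were ND2, ND6 and ATP6. Without primed and treated replicate 1, 2 mRNAs fell. Of 29 nuclear genes of the respiratory chain 1 fell, cytochrome c (CYCS), against 4.80% of all genes lower. The number lower was 0 without primed and treated replicate 1 or treated replicate 1, and 2 without primed and treated replicate 3. Among 26 genes of MYC and ribosome biogenesis, ODC1, the first enzyme of polyamine synthesis, fell from 257, 251 and 244 CPM to 162, 175 and 169 CPM (-0.57 ± 0.074, edgeR adjusted p = 1.13e-05), while the nucleolar GNL3 rose by 0.22 ± 0.047 (edgeR adjusted p = 0.00197).

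Immune and inflammatory genes were counted in 4 lists, against 7.98% called among all genes. Of 17 NF-kB targets and of 14 chemokines and cytokines, edgeR, DESeq2 and limma voom each called 0, with an unadjusted edgeR p under 0.05 for 5 and 3 of them. Of 23 interferon-induced genes 1 rose and 1 fell. The one that rose was USP18, and 0 were higher without primed and treated replicate 2 or any 1 of the treated replicates. The one that fell, OAS3, a sensor of viral RNA, was at -0.42 ± 0.098 (edgeR adjusted p = 0.00533) and did not pass without primed and treated replicate 2 (-0.35), while 2 fell without treated replicate 1. Of 16 genes of antigen presentation 3 rose and none fell, with none called without primed and treated replicate 1, primed and treated replicate 2 or treated replicate 3 and 1 without treated replicate 1. The proteasome subunit PSMB10 was at 0.38 ± 0.10 (edgeR adjusted p = 0.017), and passed in none of the fits without primed and treated replicate 1 (0.28), primed and treated replicate 2 (0.35) or treated replicate 3 (0.31). CD274, which encodes PD-L1, was at 1.40 and 1.77 CPM on average and did not pass (0.34 ± 0.24, edgeR adjusted p = 0.469). SFN, an epithelial 14-3-3 protein, was at -0.44 ± 0.10 (edgeR adjusted p = 0.00451).

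**Figure D3:**
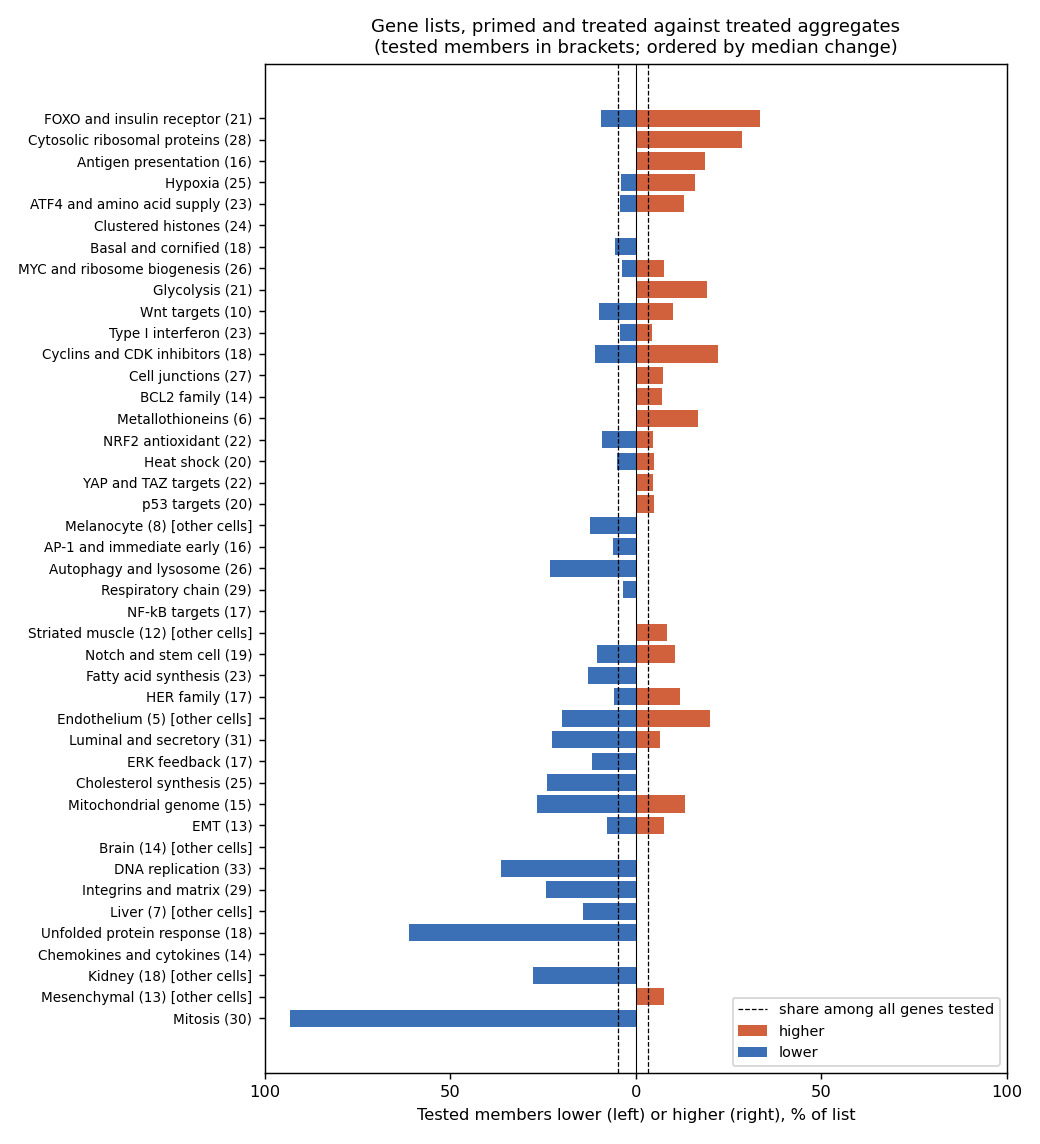
Share of the tested members of each gene list that were lower (blue, to the left) or higher (orange, to the right) in primed and treated aggregates, as a percentage of the list. The number tested stands in brackets, lists with under 5 tested members are left out, lists are ordered by their median change, and the dashed lines mark the 4.80% lower and 3.18% higher among all genes; the mitotic list, with 28 of 30 lower, and the unfolded protein response, with 11 of 18 lower, reach farthest.

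Some of the deepest falls were of genes typical of kidney tubule. Of 18 kidney tubule markers tested, 5 fell and none rose, and DESeq2 called 2 lower. LRP2, the endocytic receptor megalin of the proximal tubule (Entrez 4036, chr2:169127109-169362534 in GRCh38.p14), measured 4.90, 4.49 and 5.34 CPM in the treated and 0.898, 0.714 and 0.663 CPM in the primed and treated libraries. CUBN, its partner cubilin, measured 2.32, 2.98 and 4.10 CPM and 0.494, 0.588 and 0.589 CPM. In both, all 3 treated libraries were above all 3 primed and treated ones, with changes of -2.69 ± 0.38 and -2.47 ± 0.34 (edgeR adjusted p = 1.69e-05 and 5.27e-06). SLC22A8, an organic anion carrier of the same segment, was at -2.20 ± 0.45 (edgeR adjusted p = 0.00166) and was listed at no more than 0.0562 CPM in the 12 libraries of the other 4 groups. The factor PAX8 (-1.70 ± 0.46) and ACSM2A, an acyl-CoA synthetase (-1.37 ± 0.36), were the others that fell (edgeR adjusted p = 0.0153 and 0.0171). PAX8 did not pass without primed and treated replicate 2 (-1.55) or treated replicate 3 (-1.56), and ACSM2A without primed and treated replicate 2 (-0.99), treated replicate 1 (-1.40) or treated replicate 3 (-1.12). This left 3 kidney markers lower without primed and treated replicate 2 or without treated replicate 3.

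Markers of another kidney segment were not called. UMOD, the main protein of the thick ascending limb, measured 10.8, 0.825 and 13.4 CPM in the treated and 2.74, 22.8 and 20.8 CPM in the primed and treated libraries. SLC12A1, the salt carrier of that segment, measured 3.78, 1.05 and 3.63 CPM and 0.404, 13.7 and 4.27 CPM. Both groups spread widely and overlapped, at 0.89 ± 0.87 and 1.11 ± 0.81 (edgeR adjusted p = 0.649 and 0.494). Of the 10 largest falls among genes with at least 1 CPM in 1 group and no overlap, SLC4A4, a bicarbonate carrier (-2.14 ± 0.32), SLC34A2, a phosphate carrier (-2.14 ± 0.40), and the peptidase ANPEP (-2.15 ± 0.25) are further genes of tubule or other epithelia, with means of 3.96, 1.28 and 4.33 CPM in the treated libraries (edgeR adjusted p = 1.96e-05, 0.000494 and 4.2e-07). The scaffold protein AKAP12 (-3.46 ± 0.93, edgeR adjusted p = 0.0295), the ligase ACSL4 (-2.93 ± 0.53, edgeR adjusted p = 0.000351) and C2CD4A (-2.22 ± 0.32, edgeR adjusted p = 1.03e-05) complete the 10 with LTF, LRP2, CUBN and SLC22A8. AKAP12 did not pass without primed and treated replicate 1 (-2.95) or 2 (-3.41) or without treated replicate 1 (-3.60) or 2 (-2.61). It also did not pass with limma voom (-3.57), in the fit of the 6 libraries (-3.47) or without the libraries rich in cardiac myosin (-3.46).

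Over all 18 kidney markers the summed level was 440.4 to 488 CPM in the treated and 433 to 477 CPM in the primed and treated libraries, most of it from AQP3, a water channel found in all groups. Of 14 brain markers edgeR, DESeq2 and limma voom each called 0, with 1 at an unadjusted p under 0.05, and they summed to 67.9 to 75.7 CPM and 56.7 to 69.8 CPM. In the 8 melanocyte markers tested 1 fell (MITF). In 13 mesenchymal markers 1 rose (THY1), and 0 rose with DESeq2, with limma voom, in the fit of the 6 libraries or without any 1 library other than primed and treated replicate 1. In 7 liver markers 1 fell, the fibrinogen chain FGG, at 418, 414 and 391 CPM and 285, 289 and 300.0 CPM (-0.48 ± 0.087, edgeR adjusted p = 0.00103). FGG was found in all groups and was lowest in the primed monolayers, at 13.9 to 15.5 CPM. Of 5 endothelial markers 1 rose, CDH5, at 3.65 and 6.87 CPM (0.91 ± 0.14, edgeR adjusted p = 2.05e-05), and 1 fell, VWF, with 0 lower in each fit that left out 1 library other than treated replicate 2. Of 12 sarcomere genes 1 rose (MB), with 0 higher in each fit that left out 1 library other than primed and treated replicate 3 and with DESeq2's size factors. Of 4 white blood cell genes all 3 tools called 0, with 0 at an unadjusted p under 0.05. All these list counts stand against 3.18% of all genes higher and 4.80% lower. The part of these transcripts in the other results was not tested.

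**Figure D4:**
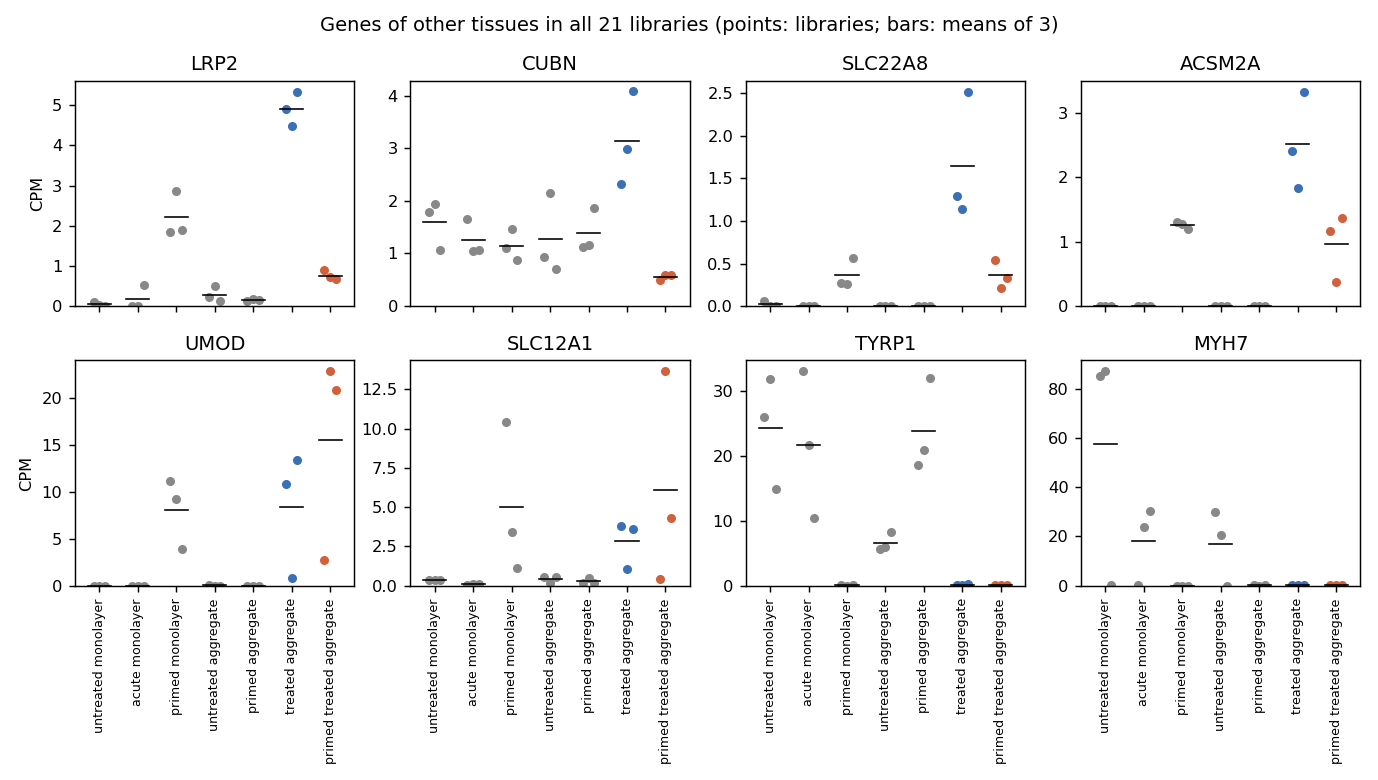
Levels of 8 genes of other tissues in all 21 libraries, in CPM from 0; points are libraries, short bars the mean of 3, blue for treated, orange for primed and treated aggregates and grey for the other groups. The proximal tubule genes LRP2, CUBN, SLC22A8 and ACSM2A are lower in primed and treated than in treated aggregates, UMOD and SLC12A1 overlap between them, and TYRP1 and MYH7 are near 0 in both.

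Priming was also compared between aggregates with no last dose, which asks whether the change with priming differed with and without that dose. These libraries are not those of the comparison above, and no library is shared. Among them 3379 genes changed (21.2%), 1836 higher (11.5%) and 1543 lower (9.66%). Of the 766 genes lower after priming in treated aggregates, 159 were also lower there (20.8% of the 766 and 10.3% of the 1543) and 119 were higher (15.5% and 6.48% of the 1836). Of the 508 higher genes, 147 were also higher there (28.9% of the 508 and 8.01% of the 1836) and 68 were lower (13.4% and 4.41% of the 1543). The difference of the responses, tested directly, passed for 1992 genes (12.5%), with the response in treated aggregates above the other for 807 (5.05%) and below it for 1185 (7.42%). It passed in the same direction for 364 of the 766 lower genes and 184 of the 508 higher ones. The change by which these genes were called is itself a part of the difference, so the shared direction is in part built in. The last dose, the 24 h of culture and the division of libraries by transcripts of other tissues coincide between the 2 pairs, so what the difference goes with cannot be told apart. Such transcripts also differed within the pair without a last dose. Melanocyte markers summed to 23.9 to 32.1 CPM in untreated and 63.4 to 106 CPM in primed aggregates. Sarcomere genes summed to 212 to 255 CPM and 154 to 159 CPM. Priming and this difference cannot be told apart in that pair.

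Among the gene lists, the mitotic genes had the largest share of members with a called difference. Without a last dose 7 of the 30 were higher after priming and none lower, and the difference was called, downward, for 26 of 30. FOXM1 was at 13.8 ± 1.63 CPM (SD, n = 3) in untreated and 14.5 ± 1.29 CPM in primed aggregates, a change of 0.075 ± 0.092, and the difference from its change in treated aggregates was -0.99 ± 0.12 (edgeR adjusted p = 8.04e-07). MKI67 was at 32.4 ± 3.26 and 39.2 ± 6.69 CPM, a change of 0.27 ± 0.11, with a difference of -1.09 ± 0.15 (edgeR adjusted p = 4.26e-05). Of the replication genes 10 of 33 were lower and none higher without a last dose, and the difference was called for 2 upward and 2 downward. CDC6 fell there by 0.62 and in treated aggregates by 0.66, with a difference of -0.049 ± 0.10 (edgeR adjusted p = 0.82). E2F1 changed by -0.70 ± 0.12 and -0.92 ± 0.11, with a difference of -0.23 ± 0.16 (edgeR adjusted p = 0.395). A p over the threshold does not show that these responses are equal.

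Several receptor genes and SPRY4 rose with priming in aggregates without a last dose and were not called higher in treated ones. ERBB2 stood at 6189 ± 426 CPM in untreated and 8274 ± 281 CPM in primed aggregates (0.42 ± 0.053, edgeR adjusted p = 4.67e-07), against 8992 ± 139.7 and 8198 ± 309.9 CPM in treated and primed and treated aggregates. The difference was -0.55 ± 0.075 (edgeR adjusted p = 2.7e-06). It was -0.62 ± 0.071 for ERBB3, -0.62 ± 0.075 for GRB7 and -0.63 ± 0.11 for INSR (edgeR adjusted p = 1.65e-07, 4.48e-07 and 0.000209). SPRY4 rose by 0.73 ± 0.065 without a last dose and fell by 0.28 with it, a difference of -1.01 ± 0.089 (edgeR adjusted p = 8.19e-10). Of the 21 genes of the FOXO list 13 were higher and 2 lower after priming without a last dose. The difference was called downward for 7 of them and upward for 2. FOXO3 and FBXO32 rose in both settings, by 0.37 ± 0.062 and 0.48 ± 0.053 without a last dose, with differences of 0.10 ± 0.086 and -0.095 ± 0.074 that did not pass (edgeR adjusted p = 0.514 and 0.459). BCL2L11 likewise rose by 0.40 ± 0.062 there, with a difference of -0.096 ± 0.085 (edgeR adjusted p = 0.527).

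Hypoxia targets and the matrix list also responded differently. Of 25 hypoxia targets 19 were lower and 1 higher after priming without a last dose, and the difference was called upward for 18 and downward for none. For EGLN3 it was 0.88 ± 0.093, for P4HA1 0.63 ± 0.075 and for PGK1 0.89 ± 0.078 (edgeR adjusted p = 5.11e-08, 2.96e-07 and 8.19e-10). VEGFA fell by 0.32 without a last dose, with a difference of 0.46 ± 0.092 (edgeR adjusted p = 0.000729) that did not pass without the libraries rich in cardiac myosin (0.22), which include replicates 1 and 2 of the untreated aggregates. Of 29 matrix genes 14 rose and none fell without a last dose, and the difference was called downward for 15 and upward for 1. PXDN rose by 0.30 ± 0.056 there (difference -0.90 ± 0.077, edgeR adjusted p = 7.6e-10), LAMB1 by 0.26 ± 0.047 (-0.58 ± 0.066, edgeR adjusted p = 1.59e-07) and ITGB4 by 0.61 ± 0.088 (-1.03 ± 0.12, edgeR adjusted p = 3.08e-07). For 10 of 18 unfolded protein response genes the difference was called downward and for none upward. Among single genes, CYP1B1 fell by 0.70 without a last dose and rose by 1.02 with it (difference 1.72 ± 0.14, edgeR adjusted p = 1.85e-08), while CYP1A1 rose in both (0.58 ± 0.17 and 1.48 ± 0.14). The difference for CYP1A1, 0.90 ± 0.22 (edgeR adjusted p = 0.014), did not pass when only the 4 aggregate groups were fitted (0.90) or without the libraries rich in cardiac myosin (0.88).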

How the data were processed

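RNA of 21 AU565 samples was extracted with TRIzol and made into TruSeq libraries, per the labels. The deposited table holds raw gene counts by Entrez identifier, which the submitters' processing notes tie to featureCounts, limma and hg38, with no versions and no statement on strand. Columns were matched to samples by title, except that "primed" in the headings of the primed aggregates comes from the treatment protocol and not from a title. RefSeq (GRCh38.p14) held 16373 of the 16553 identifiers and gave positions.

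Computed here: edgeR 4.0.16 (R 4.3.3) on the counts, TMM, filterByExpr by group (584 genes removed), 1 mean for each of the 7 groups in 1 fit with 14 residual degrees of freedom, robust quasi-likelihood tests, two-sided, with p adjusted by Benjamini-Hochberg over 15969 genes. The 3 contrasts reported were priming in treated aggregates, priming in aggregates without a last dose and the difference of these responses. CPM are TMM-scaled, values after ± are SE of the log2 fold change, or SD where stated, and a lone value beside a gene is its log2 fold change. The biological coefficient of variation was 5.98%, and libraries of a group differed by 2.77 to 5.84 times counting variance in the 2 groups. Total counts were 21823685 to 26921113 per library.

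The members and the 45 gene lists were chosen with earlier results of these data known. Named genes are those with the largest change or smallest p in each direction (10 each, at least 1 CPM in 1 group, no overlap), the 3 members of a list with the smallest p, 13 genes in every case and the 5 largest differences each way, with fewer printed for length. Members of a list named beyond these, and the AHR targets, were chosen after their values were seen. On simulated data of this comparison (15824 genes), the tests recovered 76% of changes set to 1.5-fold and 88% of those set to 2-fold (100 genes each), and 7.34% of calls were false. No change under 1.5-fold was simulated, so these rates do not describe the smaller changes that make up most of the calls. Changes were set only in genes of at least 1 CPM in treated aggregates, so the rates do not describe lower genes either. The share of false calls belongs to a setting with 200 changed genes and may not carry over to these data. Alternatives were DESeq2 1.42.0, limma 3.58.1 voom, DESeq2's size factors, no filter, genes averaging 10 CPM or more, fitting the compared groups alone, a block for the replicate number and leaving out each library. Leaving out the 6 libraries rich in MYH7 was chosen after seeing the data. No library was left out of the main values. Some single genes are not reported here.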

Additional observations from a re-analysis of the deposited data

Results flagged for a closer look

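The response to priming was tested for a difference between treated aggregates and aggregates without a last dose. It differed for 1992 genes by edgeR's test of the difference, and the genes below, all with an adjusted p under 0.05 in it, were picked out for that reason. Each value is the log2 change with priming in treated aggregates minus that in aggregates without a last dose, so a negative value marks a response that was lower with the last dose. The explanation of these differences was not tested.

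Among cell cycle genes the difference was -0.99 for FOXM1, -1.09 for MKI67, -0.81 for SPAG5, -0.78 for TACC3, -0.62 for FAM83D and -0.60 for CDC20. For cyclin D1 (CCND1) it was -0.23, and that difference did not pass without primed and treated replicate 1 (-0.21), treated replicate 1 (-0.20), primed replicate 2 (-0.20), untreated replicate 2 (-0.20), the libraries rich in cardiac myosin (-0.16) or with the replicate number as a block in the fit of the 4 aggregate groups (-0.23). Among receptors and their feedback the values were -0.55 for ERBB2, -0.62 for ERBB3, -0.62 for GRB7, -0.63 for INSR and -1.01 for SPRY4. Among hypoxia and growth genes they were 0.88 for EGLN3, 0.63 for P4HA1, 0.46 for VEGFA and 0.36 for MYC.

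The ribosomal protein gene RPS27 differed by 0.87, and the mitochondrial rRNAs by 0.46 (RNR1) and 0.43 (RNR2). The differences of enzymes and secreted or matrix proteins were 0.90 for CYP1A1, 1.72 for CYP1B1, 1.35 for CEL, 0.34 for MYLIP, -0.90 for PXDN and -0.76 for LGALS1. For the amino acid carrier SLC7A2 it was -0.65.

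The largest differences upward included STAC2, an adaptor of muscle calcium channels, at 2.64, the pyrimidine-degrading enzyme UPB1 at 2.28 and the keratin KRT17 at 2.17. STAC2 stood at 20.3 ± 2.01 CPM (SD, n = 3) in untreated, 6.49 ± 2.58 in primed, 6.33 ± 0.649 in treated and 12.5 ± 0.363 in primed and treated aggregates, so priming went with opposite changes. UPB1 rose in treated aggregates by 1.24 ± 0.30 (edgeR adjusted p = 0.00683), a call lost without treated replicate 1 (1.02), and fell by 1.04 without a last dose. GABRR2 was at 1.81, and its difference did not pass without primed and treated replicate 2 (1.71) or 3 (1.74), treated replicate 1 (1.58), primed replicate 2 (1.71), untreated replicate 1 (1.52) or the libraries rich in cardiac myosin (1.63). The largest differences downward were -6.62 for the matrix protein CRTAC1, -4.64 for protein S (PROS1), -4.60 for AKAP12 and -4.09 for ACSL4. CRTAC1 was at 0.0196 ± 0.0339 CPM in untreated and 1.89 ± 0.958 in primed aggregates, against 0.263 ± 0.128 and 0.207 ± 0.0544 with the last dose. PROS1 did not pass with limma voom (-4.45), without primed and treated replicate 2 (-4.41) or without treated replicate 1 (-4.12). For AKAP12 the difference did not pass with voom (-4.82), without primed and treated replicate 1 (-4.09) or 2 (-4.55), treated replicate 2 (-3.75), primed replicate 3 (-4.07), untreated replicate 1 (-4.66) or 3 (-4.18), or the libraries rich in cardiac myosin (-6.39). Of kidney and other epithelial genes, ANPEP was at -2.84 and CUBN at -2.59.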

How the results depend on the processing

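A primed and treated library with the number of a treated one was not labelled as its pair. Residuals of libraries with the same number correlated at -0.030, 0.064 and 0.17 over genes. Primed and treated replicates 2 and 3 correlated best with the treated library of their own number, and replicate 1 with treated replicate 2. These values do not settle whether the libraries are paired, and the numbers were not taken as pairs. With the replicate number as a block in the fit of all groups, 1228 genes were called. With the block in a fit of the 6 compared libraries 2637 genes were called, and 2050 in that fit without it; the cause was not tested. Leaving out 1 library gave 695 to 1138 genes, where 1 group rests on 2 libraries. DESeq2 called 1429, limma voom 1443, DESeq2's size factors in edgeR 1271, no filter 1263, genes averaging 10 CPM or more 1109, and the fit without the 6 libraries rich in cardiac myosin 1336. Of the 1274 genes, 1215 were also called by DESeq2 and 1247 by voom, all in the same direction. The 1992 genes whose responses differed ranged from 1502 to 2176 over the alternatives that leave out 1 library and from 1638 to 2135 over the others, the latter being the block in the fit of the 4 aggregate groups and DESeq2. Of the 1992, DESeq2 shared 1954 and voom 1903, and without the libraries rich in cardiac myosin 1722 were called, of which 1183 were among the 1992. In the fit of the 6 libraries alone, without the block, list counts over 1.5 times the main ones included 11 matrix genes, 5 of fatty acid synthesis and 7 of the mitochondrial genome lower, and 4 of ribosome biogenesis higher. Over the alternatives 83 of the 113 changes and 30 of the 36 differences of named genes kept their direction and their side of the threshold. Signs turned in 5 genes that did not pass. Over all the alternatives ERBB3 ranged from -0.0041 to 0.079, EGLN3 from -0.11 to 0.0023, CRTAC1 from -0.67 to 0.036 and CDC25B from -0.069 to 0.0014, turning without treated replicate 3, and SLC12A1 from -0.24 to 1.65, turning without primed and treated replicate 2. Fewer counts widen the errors of genes near 1 CPM, such as MT1G and AKAP12, and with 3 libraries a group small changes near the threshold move with single libraries. On simulated data, 76% of 1.5-fold and 88% of 2-fold changes were recovered. Smaller changes, and changes in genes under 1 CPM in treated aggregates, were not simulated.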
